A study of Caenorhabditis elegans with 36 samples.

Results

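HDA-1 is a class I histone deacetylase of Caenorhabditis elegans, and its binding to the genome was listed as peaks from worms on control RNAi and from worms on control plus atp-2 RNAi. A peak was kept when a peak of the other list overlapped it by at least 1 bp, lost when it was listed only under control RNAi, and gained when it was listed only under atp-2 RNAi. The control list held 6794 peaks, of which 5916 were kept and 878 were lost. The atp-2 RNAi list held 6634 peaks, of which 6053 were kept and 581 were gained. Both lists together hold 13428 of the 57748 peaks in the 8 lists of the series.

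Both groups were whole day 1 adults that carried the transgene hda-1p::hda-1::gfp, which adds HDA-1 fused to GFP under the hda-1 promoter, in a glp-4(bn2) background that leaves worms without a normal germline. The control group was fed bacteria with the empty vector L4440, and the other group received atp-2 RNAi bacteria after a period on L4440. The question put to these lists was where HDA-1 bound once mitochondria were stressed. Each group had 2 ChIP and 2 input samples, from which the authors made 1 list of peak positions, with no score, signal or read count. The lists therefore give no depth per sample and no spread between samples, and no test between the conditions was possible. Shares carry 95% Wilson intervals, which cover counting error over peaks or genes only.

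Histone deacetylases take acetyl groups off histone tails, and HDA-1 works within complexes such as NuRD, which also holds the nucleosome remodeller LET-418. atp-2 encodes the beta subunit of the mitochondrial ATP synthase, and its knockdown sets off the mitochondrial unfolded protein response, in which the nucleus turns on mitochondrial chaperones, proteases, detoxification enzymes and immune genes. DVE-1, a homeodomain protein, and the transcription factor ATFS-1 act in that response. In the worm intestine, GATA factors such as ELT-2 control many of the same kinds of effector genes through TGATAA-like words. In whole worms, fewer cells with a bound site and less binding per cell cannot be told apart.

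The sequence counted most closely in gained and lost peaks was a GATA word, and 6 windows show what it looks like in place. Each is the central 200 bp of a peak, read on the plus strand of WBcel235, the same assembly as ce11, with the extended GATA word TGATAA, or its reverse complement TTATCA, in capitals. The first 5 come from gained peaks and were picked after their values were seen, because they hold the word and lie at genes of immunity, nutrient uptake or protein turnover. irg-1 and irg-3 are pathogen-response genes, clec-78 encodes a C-type lectin, pept-1 the intestinal peptide transporter and fbxa-60 an F-box protein. The last comes from one of the widest lost peaks, inside ptp-3, a receptor tyrosine phosphatase gene, and holds no such word. These windows were chosen as illustrations, and some lost windows hold 2 or more copies, so only the counts over all windows compare the sets.
irg-1, gained, chrV:3523360-3523559: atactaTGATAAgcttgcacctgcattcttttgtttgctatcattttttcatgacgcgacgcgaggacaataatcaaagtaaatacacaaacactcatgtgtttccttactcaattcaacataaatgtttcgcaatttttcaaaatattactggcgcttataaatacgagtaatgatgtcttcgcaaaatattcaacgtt
irg-3, gained, chrV:2592362-2592561: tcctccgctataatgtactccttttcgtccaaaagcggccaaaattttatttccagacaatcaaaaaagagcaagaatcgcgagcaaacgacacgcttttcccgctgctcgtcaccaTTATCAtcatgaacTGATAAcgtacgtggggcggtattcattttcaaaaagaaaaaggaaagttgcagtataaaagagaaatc
clec-78, gained, chrIV:3988732-3988931: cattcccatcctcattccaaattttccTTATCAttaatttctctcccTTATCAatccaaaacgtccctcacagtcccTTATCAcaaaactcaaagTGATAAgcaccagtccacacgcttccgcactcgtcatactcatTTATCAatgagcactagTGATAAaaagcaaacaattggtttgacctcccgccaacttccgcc
pept-1, gained, chrX:6456650-6456849: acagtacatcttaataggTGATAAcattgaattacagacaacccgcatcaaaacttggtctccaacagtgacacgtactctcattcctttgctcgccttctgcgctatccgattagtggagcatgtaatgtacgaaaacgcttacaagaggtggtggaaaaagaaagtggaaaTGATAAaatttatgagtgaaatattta
fbxa-60, gained, chrIII:946359-946558: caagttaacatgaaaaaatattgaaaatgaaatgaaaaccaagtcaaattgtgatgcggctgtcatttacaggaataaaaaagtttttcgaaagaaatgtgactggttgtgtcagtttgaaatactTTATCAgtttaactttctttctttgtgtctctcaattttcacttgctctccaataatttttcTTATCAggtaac
ptp-3, lost, chrII:10990323-10990522: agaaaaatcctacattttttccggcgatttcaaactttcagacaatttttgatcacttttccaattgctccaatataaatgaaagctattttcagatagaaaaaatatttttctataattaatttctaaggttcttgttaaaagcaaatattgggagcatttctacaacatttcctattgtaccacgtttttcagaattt

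The irg-1 window lies just upstream of the gene, its centre 127 bp before the annotated 5' end, and carries 1 word. The clec-78 window carries 6 words and its centre lies 270 bp before the 5' end. The irg-3, pept-1 and fbxa-60 windows carry 2 words each, with centres 129, 122 and 159 bp before the 5' ends. All 5 peaks were narrow, between 474 and 682 bp, and each overlapped a DVE-1 peak listed under atp-2 RNAi. The ptp-3 window lies 14884 bp downstream of the 5' end, within the gene, and its peak overlapped no DVE-1 peak of that list.

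Across all windows, 212 of 581 gained peaks held TGATAA on either strand in the central 200 bp, a share of 36.5% (interval 32.7 to 40.5%). The share was 16.9% (14.5 to 19.5%) in lost peaks, 22.4% in kept peaks of the control list and 21% in kept peaks of the atp-2 RNAi list. Of 501361 windows of 200 bp tiling the nuclear chromosomes, 17.8% held it, as did 20.5% of windows around the 5' end of every protein-coding gene. Gained windows held the word more often than any of the other sets, and the interval of the gained share overlapped none of theirs. Windows with 2 or more copies made up 14.8% of gained, 2.85% of lost and 5.31% of kept control peaks.

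The word was not spread evenly over gained peaks. Among gained peaks on a DVE-1 peak of the atp-2 RNAi list, 198 of 448 held it (44.2%, 39.7 to 48.8%), against 14 of 133 gained peaks off such a peak (10.5%, 6.37 to 16.9%). Among lost peaks the same split gave 26.6% on and 13.6% off a DVE-1 peak. Kept peaks gave 24% and 13.6% in the control list, and 23% and 11% in the atp-2 RNAi list. The word was thus more common on DVE-1 peaks in every set, not in changed peaks alone. By width, the word was in 42.7% of gained peaks under 500 bp, 43.5% of those from 500 up to 1000 bp, and 23 of 142 of those of 1000 bp or more. Lost peaks of these widths gave 15.2%, 19.7% and 16.6%, and kept control peaks 30.6%, 24.5% and 19.6%. The gained share was thus the highest of the 3 sets below 1000 bp and not above the others in wider peaks. Gained peaks centred within 500 bp of a protein-coding 5' end had it in 44.2% and those centred elsewhere in 31.3% (26.7 to 36.4%), both above the 18.9% and 16.1% of lost peaks in the same places.

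**Figure D1:**
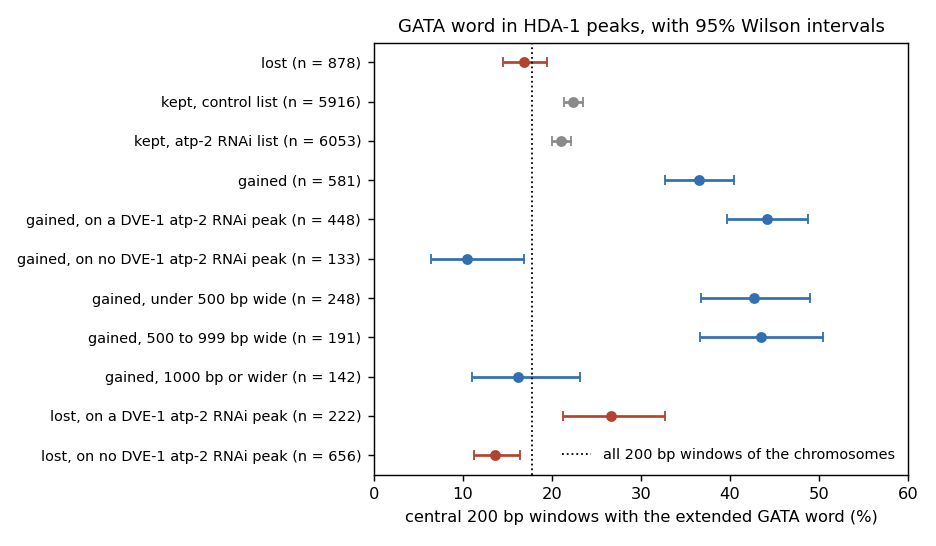
Share of central 200 bp windows with the extended GATA word on either strand (x axis, percent) for lost, kept and gained HDA-1 peaks and for subsets of gained and lost peaks; points are shares, bars are 95% Wilson intervals, and the dotted line is the 17.8% of all windows of the chromosomes. Gained peaks stand at 36.5%, at 44.2% where they lie on DVE-1 peaks listed under atp-2 RNAi, and at 10.5% where they do not.

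Other words were counted in the same way. The E-box word CACGTG was in 5.85% of gained windows (4.22 to 8.07%), 2.73% of lost and 4.04% of kept control windows, against 3.32% of all windows. The CRE-like palindrome TGACGTCA was in 2.58% of gained and 1.25% of lost windows, with overlapping intervals. The repeat GAGAGAGA was in 4.65% of gained and 5.24% of lost windows, and CTGCGTCTC in 4.99% and 3.3%; all sets were above the 1.31% and 0.791% of all windows. Median GC content was 36% in gained, 38% in lost and 37% in kept control windows, with quartiles that overlapped widely.

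Lost and gained peaks were narrow beside kept ones. The median width was 617.5 bp in lost peaks and 553 bp in gained peaks, against 1278.5 bp in kept control peaks and 1167 bp in kept atp-2 RNAi peaks. Of control peaks under 500 bp, 32% (29.3 to 34.8%) were lost, and of those between 2000 and 5000 bp 4.8%. None of the 601 control peaks of 5000 bp or more was lost, where 3 counts, taken as the limit for a count of 0, would be 0.499% and the Wilson interval reaches 0.635%. Gained peaks made up 22.9% of atp-2 RNAi peaks under 500 bp and 1 of 506 peaks of 5000 bp or more. A wide peak meets the 1 bp rule more easily by its length alone, since the median gap between atp-2 RNAi peaks was 7260.5 bp. How much of the trend with width comes from the rule was not tested, so these shares do not compare stability across widths.

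**Figure D2:**
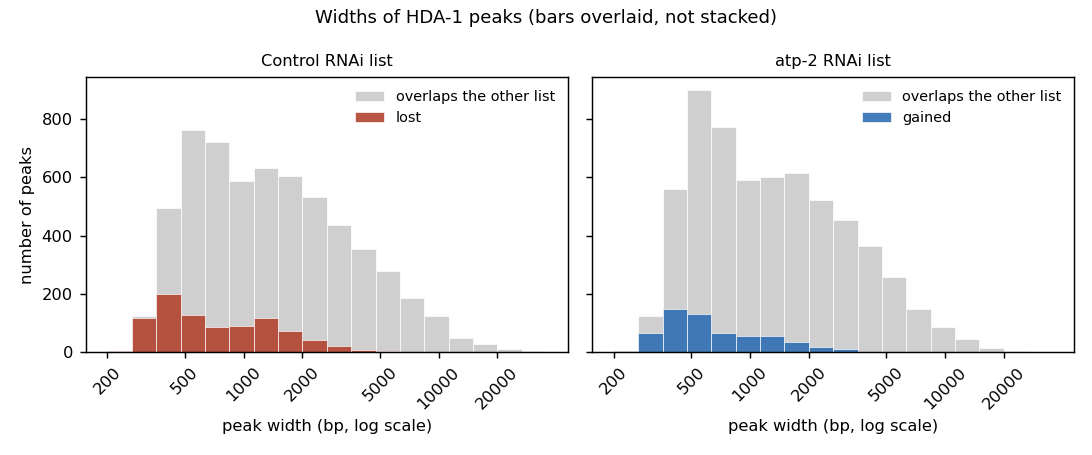
Number of HDA-1 peaks (y axis) by width (x axis, bp, log scale) in the control list (left) and the atp-2 RNAi list (right); grey bars are peaks that overlap the other list, red bars are lost and blue bars gained peaks. Lost and gained peaks crowd at the narrow end, with medians of 617.5 and 553 bp.

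The sets were well apart from the overlap limit. Just inside it, 0 kept control peaks and 1 kept atp-2 RNAi peak were overlapped by less than 100 bp. Just outside it, 2 lost and 2 gained peaks lay within 500 bp of a peak of the other list, at gaps from 5 bp for lost and 269 bp for gained peaks. The median gap was 4439.5 bp for lost and 4522 bp for gained peaks.

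Where the peaks lay also differed. The centre of a lost peak fell in an intron for 29.7% of lost peaks and within 500 bp of a 5' end for 26.5%, while gained peaks were in introns for 17.9% and near 5' ends for 40.1%. Kept control peaks gave 19.3% and 41.8%. A protein-coding 5' end lay inside 24% (21.3 to 27%) of lost, 38.2% (34.3 to 42.2%) of gained and 57.5% of kept control peaks. Median distances to the nearest 5' end were 1684 bp for lost and 827 bp for gained peaks.

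Of the 6 widest lost peaks, 5 are described here, and each lay at or inside a single gene. They were 4906 bp inside ptp-3, 4397 bp at T27D12.1, 3983 bp at ilys-5, an invertebrate lysozyme gene, 3844 bp at snf-3, a sodium-dependent transporter gene, and 3816 bp at klp-3, a kinesin gene. Of the 20 widest lost peaks, 15 met no DVE-1 peak of the control RNAi list and 15 none of the atp-2 RNAi list, while the HDA-1 list made under dve-1 RNAi covered 10 of the 20 by at least 50%.

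Of the 6 widest gained peaks, 5 held the 5' end of a gene. The widest, 5211 bp on chromosome III, held the 5' ends of B0244.7, B0244.10 and B0244.17. The next was 3794 bp at trx-3, a thioredoxin gene, followed by 3430 bp over the whole of ugt-21, a UDP-glucuronosyltransferase gene, which also overlapped the chemoreceptor gene sru-4. The others were 3342 bp over btb-16, btb-17 and btb-18, genes of BTB-domain proteins, 3152 bp between genes on chromosome III and 3117 bp at Y16B4A.2. All 20 of the 20 widest gained peaks were covered by at least 50% by DVE-1 peaks listed under atp-2 RNAi, and 7 of the 20 by DVE-1 peaks under control RNAi. The DVE-1 list itself was longer under atp-2 RNAi, with 6484 peaks against 4279.

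Kept peaks were on the whole a little narrower under atp-2 RNAi, with large changes in both directions at single loci. Among 5324 peaks that matched one-to-one, 3085 were narrower (57.9%, 56.6 to 59.3%), 2229 were wider and 10 were equal. The median log2 width ratio was -0.04, with quartiles of -0.29 and 0.13. At least 2-fold narrowing was seen in 361 pairs (6.78%) and at least 2-fold widening in 246 (4.62%). Total covered sequence was 13830387 bp under control and 12537091 bp under atp-2 RNAi, a change of -9.35%. Of the bases covered under control RNAi alone, 2136419 bp lay in kept peaks and 806782 bp in lost peaks; of those covered under atp-2 RNAi alone, 1194696 bp lay in kept and 455209 bp in gained peaks. Whether unequal depth of the libraries had a part in widths was not tested, since the lists hold no read counts.

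Broad domains made up most of the peaks that were split. Of 276 control peaks that overlapped 2 or more atp-2 RNAi peaks, 169 were 5000 bp or more wide. Over all 601 control peaks of that width, the median share of their length still covered was 90.3%. Under 50% was still covered in 30 of them (4.99%). In the other direction, the 506 atp-2 RNAi peaks of that width were covered by control peaks over a median of 99.3%, and 9 of them (1.78%) by less than 50%. The number of peaks of 5000 bp or more was 601 under control and 506 under atp-2 RNAi.

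Of the 6 pairs that narrowed most, 5 overlapped genes. feh-1, the worm gene of an amyloid-precursor-binding protein, had a peak of 4148 bp under control and 373 bp under atp-2 RNAi (log2 ratio -3.48). slcr-46.1 with C46C11.3 had 3776 and 365 bp, lst-2 with R160.12 had 5144 and 564 bp, and rgs-4, a regulator of G protein signalling, had 2608 and 320 bp. inx-1, a gap junction innexin gene, had 3259 and 402 bp, and an intergenic peak on chromosome V had 2683 and 329 bp.

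Of the 6 pairs that widened most, all overlapped a gene. fbxa-4, an F-box gene, had 407 bp under control and 6029 bp under atp-2 RNAi (log2 ratio 3.89). acdh-11, an acyl-CoA dehydrogenase gene, had 433 and 4453 bp, galt-1, a glycan galactosyltransferase gene, 357 and 3250 bp, and ifb-2, an intestinal intermediate filament gene, 588 and 4615 bp. The peak at gst-20, a glutathione S-transferase gene, had 1000 and 7582 bp, and pgp-1, a P-glycoprotein transporter gene, 329 and 2285 bp.

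At the level of genes, 6343 of 19973 protein-coding genes (31.8%) had a control peak within 500 bp of the 5' end and 6242 (31.3%) an atp-2 RNAi peak. Both lists had one at 5699 genes, the control list alone at 644 (3.22% of all protein-coding genes) and the atp-2 RNAi list alone at 543 (2.72%). Where both lists had one, the widest peak there was narrower at 59.9% of genes and wider at 40%. The share of a gene's length under peaks was lower by 50 points or more under atp-2 RNAi at 302 genes (1.51%) and higher by as much at 169 (0.846%). The counts in gene classes below are to be read against these shares. Shares over all genes of a class also depend on how many of its genes were listed at all. Of the protein-coding genes listed under control, 10.2% had no atp-2 RNAi peak. Of those listed under atp-2 RNAi, 8.7% had no control peak. Neighbouring genes of a family often share a peak, so counts of distinct peaks are given for many classes. A pair in a class is the widest peak near the 5' end in each list, and need not match one-to-one. A split peak can thus count as narrower and a merged one as wider. A gene with a peak in one list only may also lie beside a kept peak whose edge moved, which was so for 261 of the 644 genes with a control peak only and 189 of the 543 with an atp-2 RNAi peak only.

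atp-2, the RNAi target, had the greatest difference in width among the genes the study targeted or used as reporters, a log2 ratio of -4.19. Under control RNAi a peak of 9016 bp on chromosome III, from 5221857 to 5230872, covered all 2120 bp of the gene. Under atp-2 RNAi the widest peak at its 5' end was 493 bp, from 5228035 to 5228527, and 111 bp of the gene lay under peaks. The control peak was split under atp-2 RNAi, so the ratio of -4.19 sets all of it against the piece at the 5' end. How much of the 9016 bp was still covered by other pieces is not given here. In the lists, the knocked-down gene thus kept a narrow peak at its start and had almost none of the rest listed. The atp-2 RNAi bacteria carry a stretch of atp-2 itself, which the control bacteria lack. Whether reads from that stretch had a part in the peaks listed at this gene was not tested.

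Among 54 nuclear genes of the respiratory chain and ATP synthase, 38 had a 5' end peak in both lists. Under control only there were 3 (5.56%) and under atp-2 RNAi only 1 (1.85%). The 38 genes had 38 distinct pairs of peaks, 27 narrower and 11 wider, with a median log2 ratio of -0.16 against -0.05 over the pairs at all genes. cox-7C and cox-6A, of cytochrome c oxidase, were fully covered under control, at 841 and 1272 bp, and 132 and 90 bp were covered under atp-2 RNAi. The 3 genes with a control peak only were nuo-5 and nuo-6, of complex I, and ucr-2.3, of complex III, and nuaf-3, a complex I assembly factor gene, was the 1 with an atp-2 RNAi peak only. The net difference of -2 genes at 500 bp from the 5' end was 1 at 1000 bp, so its direction depends on that distance. Mitochondrial ribosomal protein genes had 36 of 70 in both lists, 8 (11.4%) under control only and 0 under atp-2 RNAi only. The widest peaks behind these 8 were 9833 bp at mrpl-53, 7625 bp at mrpl-32, 6421 bp at mrpl-50 and 467 bp at mrpl-19. The first 3 of these peaks were kept ones, but no atp-2 RNAi peak came within 500 bp of the 5' end, and the other 5 genes lay at lost peaks.

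Cytosolic ribosomal protein genes kept their 5' end peaks but had less of the gene listed. Of 81 genes, 74 had a peak in both lists, 2 under control only, rps-2 and rla-1, and 1 under atp-2 RNAi only, rpl-16. Over 70 distinct pairs, 48 were narrower and 22 wider, with a median log2 ratio of -0.34. The mean share of the gene under peaks was 45.6% under control and 30.9% under atp-2 RNAi. It was lower by 50 points or more at 17 genes (21%, against 1.51% of all protein-coding genes) and higher by as much at 4. Only a gene at least 50% covered under control can fall by 50 points, so these 2 shares are not on a like base. Mean control cover was 12.1% over all protein-coding genes. Fully covered under control were 21 of the 81 genes, against 1193 of 19973 protein-coding genes. rps-5, rps-2 and rpl-38 were fully covered in the control list and had 0 bp covered in the atp-2 RNAi list, whereas rpl-22 had 29.7% covered under control and 100% under atp-2 RNAi.

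Genes of the proteasome, which degrades ubiquitin-tagged proteins, were almost uniformly narrower. Of 33 subunit genes, 28 had a peak in both lists, and 27 of those 28 pairs were narrower, with a median log2 ratio of -0.48. The mean share of the gene covered was 49.2% under control and 30.3% under atp-2 RNAi. pas-6 had 1183 bp covered and then 105 bp, pbs-4 955 and 134 bp, pbs-2 1065 and 114 bp, and pas-1 1053 and 275 bp. pas-7 went against the class, with an atp-2 RNAi peak only, of 1824 bp, and a cover of 0% and 100%, and pbs-5 had a control peak only, of 1476 bp.

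Vitellogenin genes, which encode the yolk proteins made in the intestine, split by copy. All 6 kept a 5' end peak. vit-1 had a peak of 6409 bp and then 683 bp, vit-5 of 2399 and 573 bp, vit-4 of 2319 and 566 bp and vit-3 of 1328 and 472 bp. vit-2 had 7314 and 6809 bp and vit-6 had 6296 and 6892 bp, and both were fully covered in both lists. Some vitellogenin copies are close in sequence, and the authors kept uniquely mapped reads only, so cover within these copies is uncertain. Of 12 genes of the endoplasmic reticulum stress response all kept a peak, 9 of 12 pairs being narrower. hsp-4 and hsp-3, its BiP chaperones, had 4103 and 1609 bp and 5198 and 2324 bp, while pdi-3, a protein disulfide isomerase gene, had 6999 and 14067 bp.

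Genes of detoxification went the other way. Of 74 cytochrome P450 genes, 24 had a peak in both lists, 2 under control only and 9 under atp-2 RNAi only, the latter 12.2% of the class against 2.72% of all protein-coding genes. The 9 genes lay under 8 distinct peaks, and of 23 distinct pairs 17 were wider. The widest of the 9 were 3692 bp at cyp-14A1, 2975 bp at cyp-13A4, 1653 bp at cyp-33C2 and 1544 bp at cyp-34A6, and the 2 with a control peak only were cyp-25A1 and cyp-33C3. cyp-13A5 had 22% of the gene covered under control and 100% under atp-2 RNAi, and cyp-14A2 had 47.3% and 100%.

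UDP-glucuronosyltransferase genes, whose enzymes attach sugar to lipophilic compounds, had 22 of 67 with a peak in both lists. Under control only there was 1 (1.49%), ugt-46, and under atp-2 RNAi only 7 (10.4%). The widest of the 7 were 3430 bp at ugt-21, 1325 bp at ugt-12, 1301 bp at ugt-49 and 945 bp at ugt-29. Of 21 distinct pairs 15 were wider, and ugt-62 had 4.46% of the gene covered under control and 100% under atp-2 RNAi, under a peak shared with mrps-34, whereas ugt-65 had 14.8% and 1.79%. Glutathione S-transferase genes had 20 of 49 in both lists, 0 under control only and 4 (8.16%) under atp-2 RNAi only. Of the 4, gst-15 and gst-24 shared the 7582 bp peak of gst-20 and gst-6 had 4067 bp. At the gst-26, gst-27 and gst-28 cluster, by contrast, a control peak of 3685 bp had peaks of 626 and 1928 bp in its place.

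Lysosomal protease genes, of cathepsins and aspartyl proteases, were the class with the greatest mean gain in cover among those plotted by gene cover. Of 28 genes, 14 had a peak in both lists, 0 under control only and 4 (14.3%) under atp-2 RNAi only. The 4 were cpr-5 and cpr-8, which share a gained peak of 2299 bp, asp-8 with 480 bp and cpr-1 with 392 bp. The mean share of the gene covered was 33.4% under control and 44.1% under atp-2 RNAi. cpr-3 had 12.8% and 100%, cpr-4 13.9% and 100%, and asp-6 0% and 100%, while asp-2 had 100% and 42.6%. Near the 5' ends, within 1000 bp on either side, 14 of the 18 genes covered in any list had more bases covered under atp-2 RNAi and 0 had fewer.

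**Figure D3:**
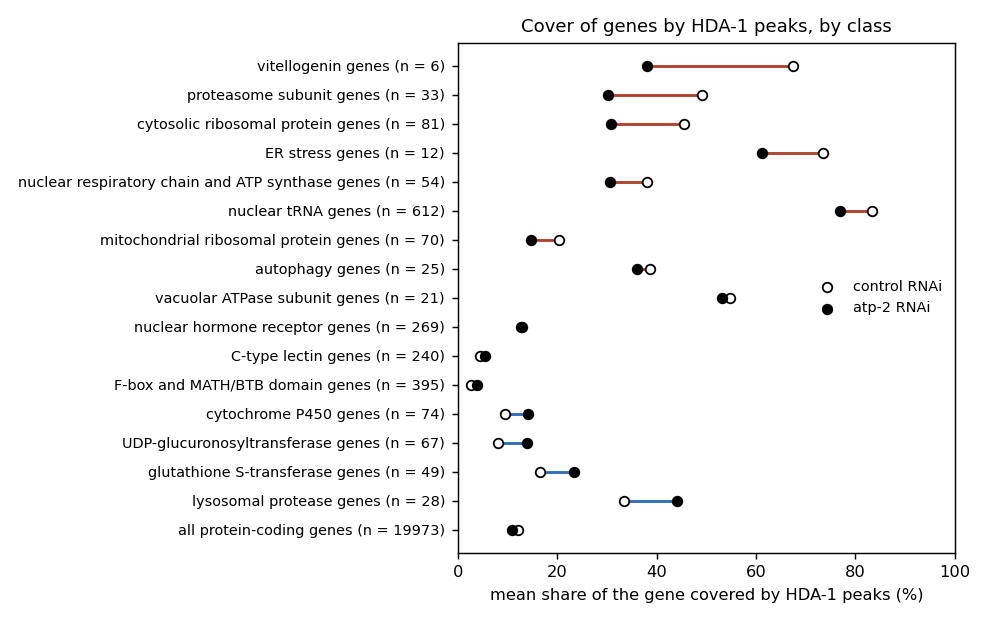
Mean share of the gene length under HDA-1 peaks (x axis, percent) for gene classes, with the number of genes in brackets; open circles are control RNAi, filled circles atp-2 RNAi, red lines mark less and blue lines more under atp-2 RNAi. The vitellogenin, proteasome and ribosomal protein classes lie to the left of their control values, at 38, 30.3 and 30.9%, and the detoxification and lysosomal protease classes to the right, while all protein-coding genes stand at 12.1 and 11%.

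Large families with roles in immunity and environmental response were mostly unlisted in both lists, and the kept pairs of C-type lectin, F-box and chemoreceptor genes were more often wider than narrower. C-type lectin genes had 25 of 240 in both lists, 4 under control only and 7 under atp-2 RNAi only (2.92%, near the 2.72% of all protein-coding genes), and 20 of 23 distinct pairs were wider. The widest of the 7 were 6225 bp at clec-91, 3247 bp at clec-10, 1527 bp at clec-1 and 617 bp at clec-258, and those of the 4 were 1562 bp at clec-86, 946 bp at clec-103, 385 bp at clec-8 and 280 bp at clec-225. F-box and MATH/BTB genes, whose products choose substrates for ubiquitin ligases, had 62 of 395 in both and 4 (1.01%) under control only. Under atp-2 RNAi only there were 21 (5.32%), at 20 distinct peaks. The widest of these were 6029 bp at fbxa-182, 2093 bp at math-39, 1179 bp at fbxa-2 and 1102 bp at fbxa-59. Nuclear hormone receptor genes had 97 of 269 in both, 3 under control only and 14 under atp-2 RNAi only (5.2% of the class), among them nhr-46 under a peak of 11754 bp, nhr-195 of 3314 bp, nhr-27 of 3174 bp and nhr-112 of 2372 bp, and the 3 were nhr-61, nhr-209 and nhr-227. Their kept pairs were even, 45 narrower and 49 wider. Of 1279 chemoreceptor genes, 31 were in both lists, 1 (0.0782%) under control only and 12 (0.938%) under atp-2 RNAi only. Both shares were below those of all protein-coding genes, but only 2.5% of chemoreceptor genes were listed under control. Of those listed under control, 3.12% (0.554 to 15.7%) had no atp-2 RNAi peak, against 10.2% of protein-coding genes. Of those listed under atp-2 RNAi, 27.9% (16.7 to 42.7%) had no control peak, against 8.7%.

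Peaks at genes of the mitochondrial stress response were in part nearly equal in width and in part not. hsp-6, the mitochondrial HSP70 gene, had a peak of 9143 bp under control and 9371 bp under atp-2 RNAi, hsp-60, the mitochondrial chaperonin gene, 7487 and 7606 bp with 3631 and 5094 of its 6062 bp covered, and atfs-1 7631 and 7600 bp. ubl-5 had 2169 and 2173 bp and dnj-10 481 and 498 bp. hsp-16.2, a cytosolic small heat shock gene, had 2693 and 2895 bp. All of these were already listed in control worms. dve-1 itself differed, with 5653 and 2945 bp. Of 11 mitochondrial chaperones, proteases and prohibitins, 9 had a peak in both lists and 1 under control only, the Lon protease gene lonp-1 (1083 bp). ymel-1, a mitochondrial AAA protease gene, had 583 and 1410 bp and phb-1, a prohibitin gene, 2124 and 837 bp.

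The other genes used as reporters or targets in the study showed the spread of outcomes. irg-1 and nhr-115 had peaks only under atp-2 RNAi, of 474 and 429 bp. cyp-33C8 had 1826 and 4661 bp, cdr-4, a cadmium-responsive gene, 2918 and 4330 bp, hmgs-1, of the mevalonate pathway, 1568 and 1776 bp, tars-1, a threonyl-tRNA synthetase gene, 1741 and 2066 bp, and ipla-3 1091 and 1204 bp. glp-4 had 800 and 805 bp. hda-1, M04C3.2, djr-1.2, cua-1 and odr-1 had no peak within 500 bp of the 5' end in either list. Among 10 NuRD and MEC complex genes, 7 had a peak in both lists and lin-40 only under control (1375 bp), while the peak at let-418 was 2446 bp under control and 8301 bp under atp-2 RNAi.

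Nuclear tRNA, microRNA and ceh homeobox genes more often had a peak under control only than under atp-2 RNAi only. Of 612 nuclear tRNA genes, 477 had a peak in both lists, 44 (7.19%) under control only and 4 (0.654%) under atp-2 RNAi only. Thus 85.1% (82.1 to 87.7%) were listed under control and 78.6% (75.2 to 81.7%) under atp-2 RNAi. Few tRNA genes were therefore left to be listed under atp-2 RNAi only. Of the tRNA genes listed under control, 8.45% (6.35 to 11.1%) had no atp-2 RNAi peak, against 10.2% of protein-coding genes. That share was 14.5% (9.16 to 22.3%) for microRNA and 38.9% (20.3 to 61.4%) for ceh genes. Of the tRNA genes listed under atp-2 RNAi, 0.832% had no control peak, against 8.7% of protein-coding genes. The 44 genes rested on 35 distinct peaks and the 4 on 3. The control-only genes were on X, 24 of 245 (9.8%), and on the autosomes, 20 of 276 (7.25%). microRNA genes had 94 of 261 in both lists, 16 (6.13%) under control only and 5 (1.92%) under atp-2 RNAi only, at 14 and 3 distinct peaks. The net difference was smaller at other distances from the 5' end. Homeobox genes named ceh had 11 of 63 in both, 7 (11.1%) under control only and 1 (1.59%), ceh-7, under atp-2 RNAi only. The widest of the 7 were 1633 bp at ceh-34, 1618 bp at ceh-20, 1560 bp at ceh-58 and 1446 bp at ceh-18. 21U-RNA genes, which encode piRNAs, were near balance, with 203 of 15363 (1.32%) under control only and 181 (1.18%) under atp-2 RNAi only. Both shares were below those of all protein-coding genes, but only 7.3% of 21U-RNA genes were listed under control. Of those listed under control, 18.1% (16 to 20.5%) had no atp-2 RNAi peak, against 10.2% of protein-coding genes. Of those listed under atp-2 RNAi, 16.5% (14.4 to 18.8%) had no control peak, against 8.7%. The counts rested on 88 and 74 distinct peaks.

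Genes that the study listed as induced by atp-2 RNAi in RNA sequencing of other samples more often had a peak under atp-2 RNAi only than under control only. Of 799 with a position, 387 had a 5' end peak in both lists, 27 (3.38%) under control only and 57 (7.13%) under atp-2 RNAi only, against 3.22% and 2.72% of all protein-coding genes. Of 374 distinct pairs, 207 were wider and 167 narrower. Those that the study listed as dve-1-dependent had 29 of 218 under atp-2 RNAi only (13.3%) and 3 under control only, and 92 of 121 distinct pairs were wider, with a median log2 ratio of 0.22. Those listed as hda-1-dependent had 25 of 279 (8.96%) under atp-2 RNAi only and 7 under control only, and 86 of 143 pairs were wider. The study drew these lists from its own worms under the same RNAi, and membership is all that was used of them. Both dependent lists are parts of the induced list and share genes with each other, cpr-5 among them. Their counts are therefore not separate results. Of the 57 genes, 40 lay at gained peaks and 17 at kept peaks whose edge had reached them, and the widest peaks were of the latter kind, 8353 bp at F49E12.10, 7582 bp at gst-15, 6656 bp at kreg-1 and 6463 bp at R05H10.3.

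Marker genes gave the tissue context. Of 9 intestine markers matched by name, 7 had a control 5' end peak and 8 an atp-2 RNAi one. Among these 9 the added gene was ifb-2, whose atp-2 RNAi peak was a kept one that had widened. A further marker, opt-2, was not matched by name and is not counted. Of 7 pairs at intestine markers 3 were narrower and 4 wider, and mean gene cover was 35% and 33.5%. The peak at elt-7, a GATA factor gene, was 1268 and 807 bp, and the peak at elt-2, the intestinal GATA factor gene, was 1926 bp under control and 6505 bp under atp-2 RNAi, the latter also over elt-4. None of 10 germline markers had one in either list. Neuron markers had 6 of 10 in both lists, all 6 narrower, body wall muscle markers 4 of 10, and epidermis markers 0 of 10 under control and 1 under atp-2 RNAi. Whether a shift between tissues had a part in the class counts was not tested.

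Chromosome X carried most of the net change in number, and the autosomes most of the change in covered sequence. X held 1480 peaks under control and 1337 under atp-2 RNAi, a change of -143 of the -160 over all chromosomes. The net number also depends on split control peaks, 67 on X and 209 on the autosomes, and on merged ones, 43 and 124. On X 249 peaks were lost (16.8%, 15 to 18.8%) and 74 gained (5.53%, 4.43 to 6.89%), and covered sequence changed by -482390 bp (-14.5%). On the autosomes 629 were lost (11.8%, 11 to 12.7%) and 507 gained (9.57%, 8.81 to 10.4%), and covered sequence changed by -810906 bp (-7.71%). Among protein-coding genes with a control peak at the 5' end, 12.1% on X (10.3 to 14.3%) and 9.77% on the autosomes (9 to 10.6%) had none under atp-2 RNAi. Chromosome IV had 995 and 1038 peaks, and chromosome V was near balance with 150 lost and 143 gained.

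**Figure D4:**
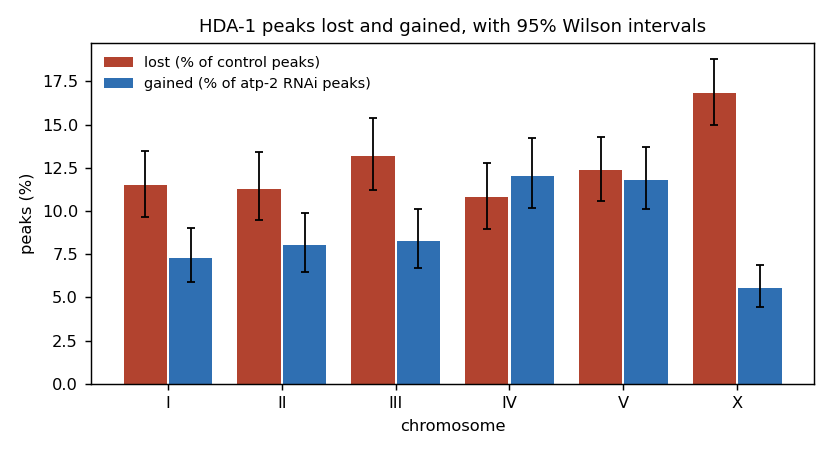
HDA-1 peaks lost, as a percent of control peaks (red), and gained, as a percent of atp-2 RNAi peaks (blue), on each chromosome, with 95% Wilson intervals as error bars. X has the highest lost share, 16.8%, and the lowest gained share, 5.53%, while IV and V have gained shares of 12 and 11.8%.

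Within autosomes, gains were more common towards the ends. In the outer 25% at each end 284 of 2233 atp-2 RNAi peaks were gained (12.7%, 11.4 to 14.2%), and in the middle 223 of 3064 (7.28%, 6.41 to 8.25%). The lost shares were 12.1% and 11.7%. Chromosome V had the highest outer share, 15.7%, and there 45% of pairs were narrower, the lowest share of any autosome zone. On X the gained shares were 6.35% and 4.78%, with overlapping intervals.

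Gained and lost HDA-1 sites met the peaks of other libraries unequally. DVE-1 peaks listed under atp-2 RNAi overlapped 448 of 581 gained HDA-1 peaks (77.1%, 73.5 to 80.3%), 84.8% of kept control peaks and 222 of 878 lost peaks (25.3%, 22.5 to 28.3%). DVE-1 peaks under control RNAi overlapped 25% of gained, 63.3% of kept and 12.4% of lost peaks. The DVE-1 lists covered 8661491 bp under control and 12366577 bp under atp-2 RNAi, and the overlap was higher under atp-2 RNAi in every set. Neither of these DVE-1 lists met 70.8% of lost peaks, against 21.3% of gained and 14.2% of kept control peaks. In peaks from 500 up to 1000 bp, where widths are alike, the shares on DVE-1 peaks under atp-2 RNAi were 81.7% for gained, 83.1% for kept control and 25.9% for lost peaks.

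HDA-1 lists made under dve-1 RNAi met lost peaks more often than gained peaks, and kept control peaks most often. These lists come from worms with dve-1 knocked down and from 3 ChIP samples each, and their peaks are narrower, so they are not a repeat of the comparison. The list under dve-1 RNAi overlapped 65.4% of lost, 26.5% of gained and 84.3% of kept control peaks. The list under dve-1 with atp-2 RNAi overlapped 73.3%, 44.9% and 91.7%. Of the 574 lost peaks present under dve-1 RNAi, 32 were missing once atp-2 RNAi was added (5.57%), against 53 of 4989 kept control peaks (1.06%). Of the 427 gained peaks absent under dve-1 RNAi, 113 were present once atp-2 RNAi was added (26.5%, 22.5 to 30.8%), against 482 of 901 kept atp-2 RNAi peaks (53.5%). Of the 304 lost peaks absent under dve-1 RNAi, 102 were present once atp-2 RNAi was added (33.6%, 28.5 to 39%). Under dve-1 RNAi, then, most lost sites were listed with or without atp-2 RNAi. Most gained sites absent under dve-1 RNAi remained unlisted, and so did most lost sites absent there.

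The same held base by base. Of 1649905 bp under HDA-1 peaks only in the atp-2 RNAi list, DVE-1 peaks covered 29.2% under control and 68.7% under atp-2 RNAi. Of 2943201 bp only in the control list, they covered 14.2% and 20.1%, and of 10887186 bp in both lists 63.9% and 77.2%. HDA-1 peaks under dve-1 with atp-2 RNAi covered 23.2% of the added, 44.7% of the removed and 76.8% of the shared bases. Bases added to kept peaks and bases in gained peaks were alike in this respect, with 66.1% and 75.4% under DVE-1 peaks of the atp-2 RNAi list.

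**Figure D5:**
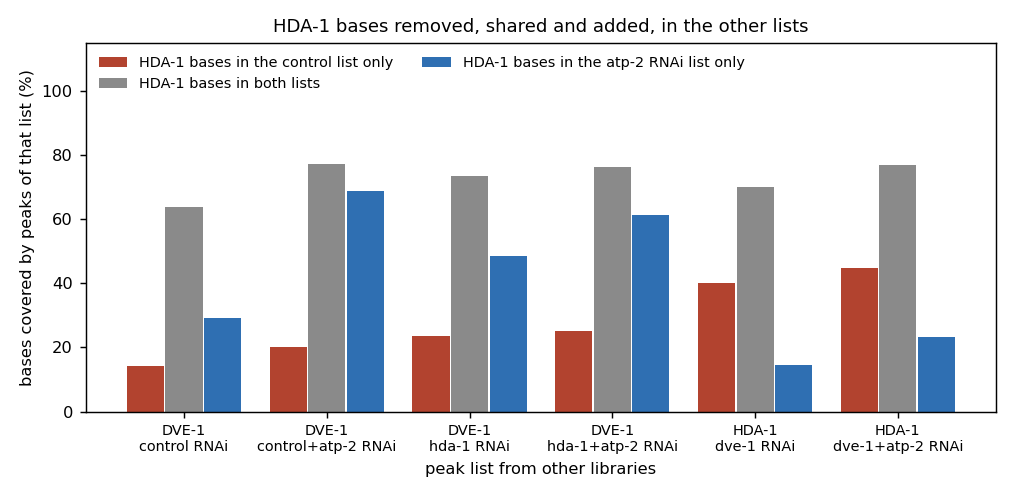
Percent of HDA-1 bases (y axis) that each of 6 peak lists from other libraries covers (x axis), for bases in the control list only (red), in both lists (grey) and in the atp-2 RNAi list only (blue). Added bases are covered over 68.7% by DVE-1 peaks under atp-2 RNAi and over 14.6% by HDA-1 peaks under dve-1 RNAi, where removed bases are covered over 20.1% and 40%.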

How the data were processed

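ChIP sequencing libraries of HDA-1-GFP were compared between control and control plus atp-2 RNAi, grouped by the labels. Per the study's methods, the authors trimmed reads with Trim Galore, aligned them with BWA 0.7.13-r1126 to ce11, kept unique, properly paired reads, removed duplicates with Picard 2.17.6 and called broad peaks with MACS2 2.1.1. They deposited 1 list of peak starts and ends per condition; how the 2 samples were combined is not given in the sources used here. A peak that one list lacks may lie just under the calling threshold.

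Positions were counted from 1. Overlap was at least 1 bp, gene positions came from Ensembl 115 (WBcel235), a peak counted for a gene within 500 bp of the 5' end, and the widest such peak gave the width. Words were counted on both strands of the central 200 bp, in the NCBI sequence of WBcel235, and a window could count for several words. Code (Python 3.11.15, NumPy 2.4.6, matplotlib 3.10.9) was tested on simulated lists, and lost and gained counts were checked against bedtools 2.31.1. Members, gene lists and words were chosen with earlier results of these data known. Named genes are the study's own, those at the 6 widest lost and gained peaks and at the 6 pairs that narrowed or widened most with a wider side of at least 1000 bp, and per class up to 4 that gained or lost a peak, by width; other named genes were chosen after their values were seen. 1 intestine marker, opt-2, did not match a gene name of the annotation and was left out of the counts. Markers were matched by current gene name only, and other names of opt-2 were not looked up. 1 of the 6 widest lost peaks is not reported here.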

Additional observations from a re-analysis of the deposited data

Results flagged for a closer look

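The change that came with atp-2 RNAi had opposite signs in both pairs of HDA-1 lists. Under control RNAi the number of HDA-1 peaks changed by -160 and covered sequence by -1293296 bp, whereas under dve-1 RNAi the number changed by 1350 and covered sequence by 1635220 bp. The lists under dve-1 RNAi come from 3 samples each and those under control from 2, each condition has 1 list, and the difference was not tested.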

How the results depend on the processing

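The overlap rule mattered most. With a match asked to span 50% or more of each peak, 71.3% of control peaks and 73% of atp-2 RNAi peaks were kept, 1953 were lost and 1793 gained, since a peak that changed width then counts as both. With peaks of 500 bp or wider, the kept shares were 84.4% and 88.8%, and with the 5000 widest peaks of each list 83.7% and 85.9%. With all annotated genes in place of protein-coding ones, 1449 genes lost and 933 gained a 5' end peak, since more genes were counted. Joining peaks, or allowing gaps of up to 500 bp, left counts of lost and gained peaks within 1.5 times. The change in covered sequence, -1293296 bp in the main setting, was -1295622 bp with peaks joined. With peaks of 500 bp or wider it was -1298135 bp, and it was not recomputed with gaps allowed. The share of narrower peaks was 57.8 to 59.1% under the alternatives run, and 57.6% of 5' end windows of 1000 bp each side covered in both lists had less cover, ties left out, a measure chosen after seeing the data. For 16 gene classes the net change in 5' ends with a peak was recomputed with the 5' end inside the peak and at 1000 bp, and 24 of 32 values stayed within 1.5 times and 7 moved beyond it with the same sign. For the respiratory chain and ATP synthase it was -2 at 500 bp and 1 at 1000 bp; the cause was not tested. For microRNA genes it was -11 at 500 bp, -5 with the 5' end inside the peak and -6 at 1000 bp. No paired analysis was possible because each condition has 1 list. With no scores or counts in the lists, neither a stricter threshold nor leaving out a sample could be tried.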
